A study of Mus musculus with 6 samples.

Results

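Cells of the intestinal lining take up dietary iron and zinc, keep part of them bound in storage proteins and pass the rest to the blood. The 10 genes described here carry out these steps: Cybrd1, Slc11a2, Slc40a1 and Heph in iron uptake and export, Tfrc in iron uptake from the blood, Fth1 and Ftl1 in iron storage, Slc39a4 in zinc uptake, and Mt1 and Mt2 in zinc binding. They were chosen by name as handling genes of the 2 metals, and a probe was assigned to one of them where its transcript accession maps to that gene. This gave 18 probes for the 10 genes, of 56605 probes and 23462 named genes on the array. All 18 probes passed the filter on dim signal, which needs the scanner's flag for a signal well above background from 3 of the 6 arrays or more.

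RNA came from isolated crypts, the pockets at the base of the intestinal epithelium that hold its stem cells, of mice labelled as of mixed strain, and each sample was hybridised to 1 one-colour Agilent array. The 3 knockout samples were from Villin-Cre; Arid1a f/f mice, in which Cre under the Villin promoter acts in the intestinal epithelium, and the 3 control samples were from Arid1a f/f mice, so both groups carry the floxed alleles of Arid1a, a subunit gene of the BAF chromatin remodelling complex. Age and the segment of the intestine are not given in the sources used here, and they do not state that each sample is its own animal, so the p-values reflect only the variation among these samples. For knockout 2 and control 3 the genotype label contradicts the title, and the groups here follow the titles. Arid1a had log2 signals of 2.20, 2.07 and 2.51 in knockouts 1 to 3, against 3.71, 3.47 and 4.01 in controls 1 to 3, which goes with the titles on all 6 arrays. The series title names stem cell maintenance and Sox9 as its subject, and the comparison of metal handling genes asks which of them differed between knockout and control crypts.

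In background terms, absorptive cells reduce dietary ferric iron at their surface with the enzyme encoded by Cybrd1 and import it through the divalent metal transporter encoded by Slc11a2. Ferroportin, the product of Slc40a1, exports iron at the other face of the cell, where hephaestin, the product of Heph, oxidises it for binding to transferrin. In mice this absorptive machinery is most active in the duodenum. The messages of Tfrc, Fth1, Ftl1, Slc40a1 and some forms of Slc11a2 carry iron-responsive elements, which are bound by the proteins of Aco1 and Ireb2, while Mt1, Mt2 and zinc exporters such as Slc30a1 are induced by zinc through the transcription factor Mtf1.

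The share of probes above background was 41.7% to 54.7% by array, and the tests covered 13492 genes. Signals are given as log2 of the processed spot signal with each array's 75th percentile set to 0, so that they can be compared between arrays for 1 probe but not between probes. A gene was called where its adjusted p in limma was under 0.05. Of all genes tested, 14.9% were called, 7.28% higher and 7.63% lower in knockout crypts. Of the 13 listed markers of crypt epithelium, 12 were measured and all 12 were above background on every array; 0 were higher and 2 lower in knockout crypts, Ascl2 at -3.09 ± 0.57 and Axin2 at -0.85 ± 0.16 (adjusted p = 0.0181 and 0.0198, limma, n = 3 each), with a list median of -0.65. Ascl2 was called in 3 and Axin2 in 2 of the 6 fits that left out an array. The summed signal of 18 absorptive enterocyte markers, in multiples of the array's 75th percentile, was between 3946 and 7026 on the knockout arrays, against 4483 to 5740 on the control arrays. Y-linked genes such as Eif2s3y and Kdm5d were high on knockouts 1 and 3 and control 1 and low on the other 3 arrays, so the groups are not balanced for sex. In bulk RNA, fewer cells of a type and less RNA per cell cannot be told apart.

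Of the 10 iron and zinc genes, 1 was called, the zinc importer gene Slc39a4, which was 2.14-fold higher in knockout crypts (log2 fold change 1.1 ± 0.22, SE, n = 3 each, adjusted p = 0.0214, limma). This is 1 of 10 against the 7.28% of all genes called higher. All 10 fold changes were positive, while 49.1% of all genes tested had a positive one, and the members' median log2 fold change was 0.85 against -0.01 over all genes. The members' median is the midpoint of Slc11a2 at 0.65 and Cybrd1 at 1.05, neither of which was called (adjusted p = 0.572 and 0.492, limma). That median was 0.53 without knockout 2, 0.41 without control 1, 1.34 without control 2 and 0.41 without both arrays of contradicting labels. The count of 10 positive values was lost with the mean of each gene's probes (Slc11a2 at -0.10), without control 1 (Slc11a2 at -0.0034), without knockout 1 (Tfrc at -0.046), with array weights (Tfrc at -0.36), without both arrays of contradicting labels (Slc40a1 at -0.075) and with groups by genotype (6 of 10 negative). With sex as a block the median was 1.13, with Cybrd1 at 1.77, Slc40a1 at 1.99 and Slc11a2 at 1.04, and Slc39a4 was called (1.25, adjusted p = 0.0143, limma). At an unadjusted p under 0.05 the members numbered 3 of 10, where the share over all genes was 34.2%. In 3 of 10 genes, Ftl1, Slc39a4 and Mt1, every knockout array lay above every control array, where this held for 19.0% of all genes and separation in either direction for 39.7%. With the slide as a block, where 18.6% of all genes were called, Slc39a4 was again the 1 member called. Scaling each array to its median in place of the 75th percentile moved the median of all genes to -0.26 and that of the members to 0.60, all 10 fold changes stayed positive but those of Heph, Tfrc and Fth1 were at 0.017, 0.065 and 0.052, and limma called 0 of 10, with 2 at an unadjusted p under 0.05.

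**Figure D1:**
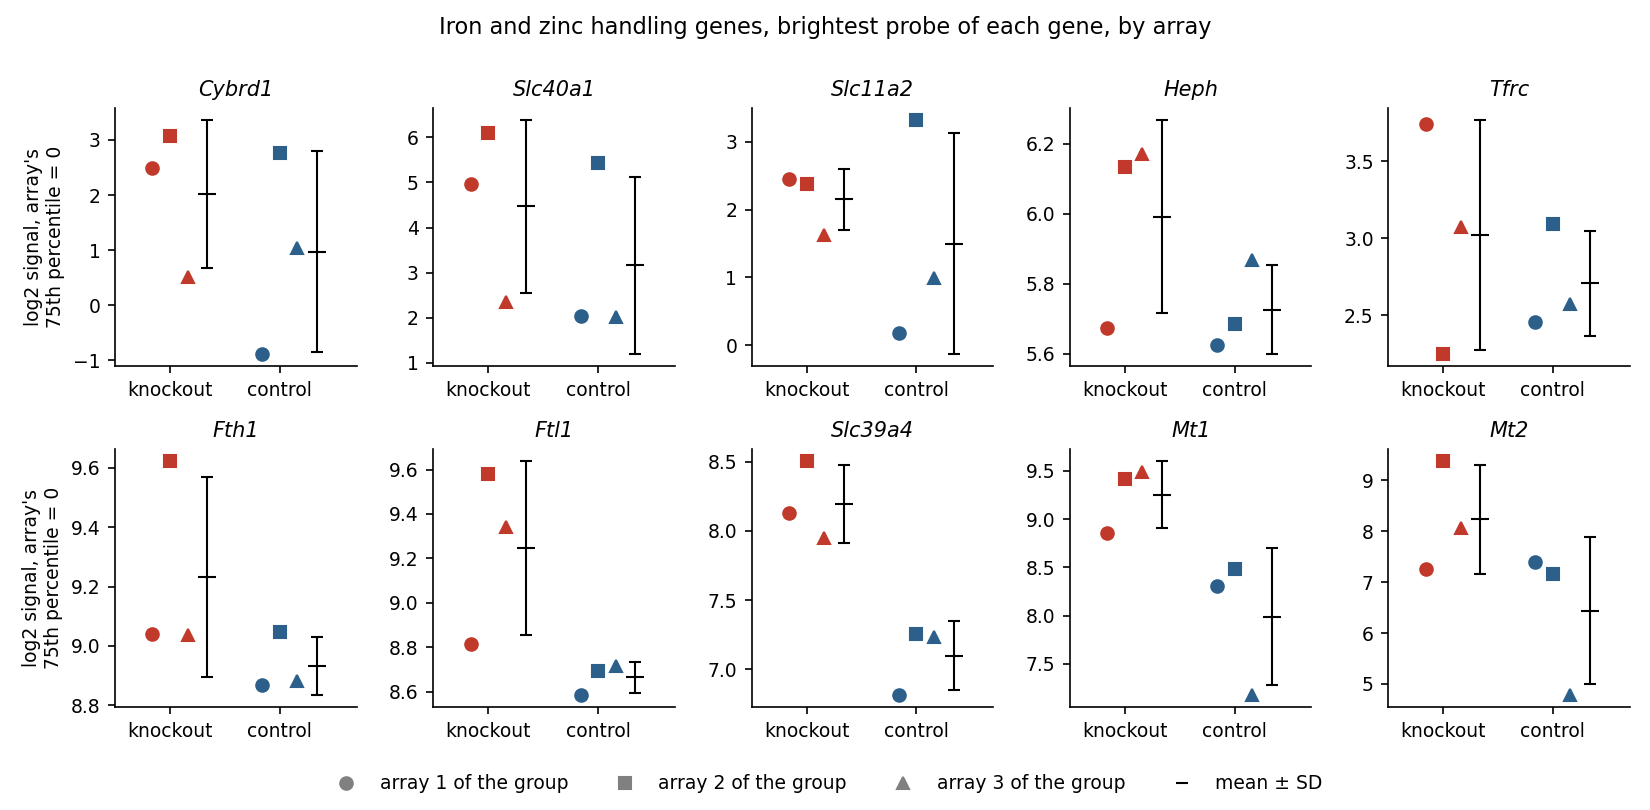
Log2 signal (array's 75th percentile = 0) of the brightest probe of each of the 10 genes, 1 point an array, 3 knockout arrays left and 3 control arrays right in each panel, with group mean and SD. The groups are separate for Ftl1, Slc39a4 and Mt1, and the control arrays of Cybrd1, Slc40a1 and Slc11a2 lie over 3 log2 units apart.

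Slc39a4 encodes the zinc importer of the absorptive cell's luminal membrane. Its probe read 8.13, 8.51 and 7.95 on knockouts 1 to 3, against 6.81, 7.25 and 7.23 on controls 1 to 3. All 3 knockout arrays were above all 3 control arrays, with 0.69 log2 units between the lowest knockout and the highest control array. The group means were 8.19 ± 0.28 in knockout crypts and 7.10 ± 0.25 in control crypts (SD, n = 3 each), and the 95% interval of the log2 fold change ran from 0.58 to 1.61. The 4 arrays of slide 1 gave a difference of 1.29 and the 2 arrays of slide 2 one of 0.72, and the fit blocked on the slide gave an adjusted p of 0.0289. The adjusted p was over the threshold at 0.0511 with array median scaling (log2 fold change 0.85), at 0.0795 with no filter on dim probes, and at 0.153 without both arrays of contradicting labels (1.01). Left out singly, knockout 2 gave 0.94 (adjusted p = 0.0652), control 1 gave 0.95 (0.0838), control 2 gave 1.17 (0.0617) and control 3 gave 1.16 (0.0617), while the gene was called without knockout 1 (1.13, 0.0233) and without knockout 3 (1.22, 0.0268), all in limma.

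The metallothioneins are small cysteine-rich proteins that bind zinc and copper. Mt1 read 8.85, 9.42 and 9.49 on knockouts 1 to 3, against 8.31, 8.48 and 7.18 on controls 1 to 3. The groups did not overlap, and control 3 was the lowest array. The log2 fold change of Mt1 was 1.26 ± 0.38 (SE, n = 3 each, 95% interval 0.37 to 2.16), a 2.40-fold higher mean in knockout crypts that did not pass the threshold (adjusted p = 0.0671, limma). Without control 3 it was 0.86 (adjusted p = 0.108, limma), and without knockout 1 it passed at 1.46 (0.0445). Mt2 read 7.26, 9.38 and 8.06 on knockouts 1 to 3, against 7.39, 7.15 and 4.78 on controls 1 to 3. The groups overlapped, since controls 1 and 2 lay near knockout 1, and control 3 was again the lowest array. The log2 fold change of Mt2 was 1.79 ± 0.81 (SE, n = 3 each, 95% interval -0.14 to 3.73, adjusted p = 0.169, limma). Leaving out control 3 gave 0.96, and leaving out both arrays of contradicting labels 0.39. On slide 1 the differences were 0.74 for Mt1 and 1.05 for Mt2, while on slide 2, which holds knockout 3 and control 3, they were 2.32 and 3.29.

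Mt1 and Mt2 neighbour each other on chromosome 8, and their promoters are shown because both genes had their lowest signal on the same array. Metal response elements, the sites bound by Mtf1, share the core TGCACNC or TGCGCNC. Each window spans 250 bases before to 30 bases after the transcription start that RefSeq annotates (GRCm38.p6, plus strand). Capitals mark matches to the core on either strand.
Mt1 chr8:94178839-94179118: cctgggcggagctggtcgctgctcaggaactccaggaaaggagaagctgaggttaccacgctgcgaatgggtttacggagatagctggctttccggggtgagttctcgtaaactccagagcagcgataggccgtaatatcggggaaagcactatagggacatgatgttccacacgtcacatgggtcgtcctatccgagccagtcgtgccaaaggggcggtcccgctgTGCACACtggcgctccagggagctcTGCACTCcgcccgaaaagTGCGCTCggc
Mt2 chr8:94172368-94172647: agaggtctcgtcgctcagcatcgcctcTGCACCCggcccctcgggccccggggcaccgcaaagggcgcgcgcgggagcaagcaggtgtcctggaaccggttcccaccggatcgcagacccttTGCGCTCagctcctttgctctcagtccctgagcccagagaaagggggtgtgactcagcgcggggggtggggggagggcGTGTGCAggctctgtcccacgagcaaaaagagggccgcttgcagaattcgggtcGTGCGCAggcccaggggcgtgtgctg
The Mt1 window held 3 matches, which begin at positions -23, 3 and 21 relative to that annotated start, all on the gene's own strand and not overlapping. The Mt2 window held 4 matches, at -223 and -128 on its own strand and at -50 and 5 on the opposite strand. Of 32851 promoter windows of the same length, 24.1% held at least 1 match and 1.73% held at least 3. Windows were at hand for 6 of the 10 genes, 8 windows in all, of which 3 held a match: those of Mt1 and Mt2 and 1 of Tfrc, with 2 overlapping matches. A match is a string of letters and not a site shown to be bound. Matches outside the windows were not counted, so these are not counts for a whole promoter. Whether transcription in crypts begins at the annotated starts was not tested. The Mtf1 gene itself was 0.42 ± 0.21 higher in log2 on its brightest probe (SE, n = 3 each, adjusted p = 0.194, limma), and its 3 probes gave 0.20, 0.42 and 1.02. Of these 3 probes tested singly, A_52_P236072 passed (1.02, adjusted p = 0.0152, limma).

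Fth1 and Ftl1 encode the heavy and light chains of ferritin, the shell that stores iron inside cells. Ftl1 read 8.81, 9.58 and 9.34 on knockouts 1 to 3, against 8.58, 8.69 and 8.71 on controls 1 to 3. The groups did not overlap, the 3 control arrays lay within 0.13 log2 units, and knockout 1 was the array nearest to them. The log2 fold change of Ftl1 was 0.58 ± 0.22 (SE, n = 3 each, 95% interval 0.05 to 1.11) and did not pass after adjustment (adjusted p = 0.121, limma), with 0.56 on slide 1 and 0.63 on slide 2. A dimmer probe of Ftl1, A_55_P1983959, gave 5.90, 6.96 and 6.39 on the knockout arrays, against 5.51, 5.54 and 5.65 on the control arrays. Its groups did not overlap either, and its log2 fold change of 0.84 ± 0.27 had an adjusted p of 0.0816 over all probes (limma, n = 3 each). Without knockout 1, which is the lowest knockout array on both probes, the brighter probe passed at 0.80 (adjusted p = 0.0187, limma). Fth1 read 9.04, 9.62 and 9.04 on knockouts 1 to 3, against 8.87, 9.05 and 8.88 on controls 1 to 3. Only knockout 2 stood clear of the control arrays, and the log2 fold change of 0.30 ± 0.21 (SE, n = 3 each, 95% interval -0.19 to 0.79, adjusted p = 0.333, limma) did not pass. Ferritin genes have processed copies in the genome whose transcripts a probe could also bind, and their part in these signals was not tested.

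Slc40a1, Cybrd1 and the brightest Slc11a2 probe had control arrays further apart than the group means. Slc40a1, the exporter, read 4.97, 6.08 and 2.35 on knockouts 1 to 3, against 2.04, 5.43 and 2.01 on controls 1 to 3. Knockouts 1 and 2 and control 2 were high, and knockout 3 and controls 1 and 3 were at least 2.62 log2 units below them. The log2 fold change was 1.31 ± 1.23 (SE, n = 3 each, 95% interval -1.62 to 4.24, adjusted p = 0.478, limma). Among all genes tested, 0.326% had a larger SD over the 3 control arrays than the 1.97 of Slc40a1. Its fold change was 0.50 without knockout 2, 2.44 without control 2, and -0.075 without both arrays of contradicting labels.

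Cybrd1, the surface reductase, read 2.49, 3.07 and 0.51 on knockouts 1 to 3, against -0.89, 2.77 and 1.05 on controls 1 to 3. The groups overlapped, with control 2 between knockouts 1 and 2, and knockout 3 below 2 of the 3 control arrays. The log2 fold change was 1.05 ± 1.02 (SE, n = 3 each, 95% interval -1.38 to 3.47, adjusted p = 0.492, limma), with 1.84 on slide 1 and -0.53 on slide 2, and 0.12 without control 1. Its dimmer probe, A_52_P681592, gave 0.19, 0.55 and -2.08 on knockouts 1 to 3, against -3.99, -1.12 and -2.42 on controls 1 to 3, and was above background on 3 knockout and 2 control arrays. That probe again put knockouts 1 and 2 and control 2 highest, and its difference of 2.07 ± 0.90 did not pass (adjusted p = 0.159, limma, n = 3 each).

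Slc11a2, the divalent metal importer, has 4 probes, and they disagreed in direction. The brightest, A_52_P196476, read 2.45, 2.37 and 1.63 on knockouts 1 to 3, against 0.18, 3.32 and 0.99 on controls 1 to 3. Control 2 was the highest array and control 1 the lowest, and the log2 fold change was 0.65 ± 0.76 (SE, n = 3 each, 95% interval -1.17 to 2.47, adjusted p = 0.572, limma). Its mean over the 6 arrays was 1.82, against 1.81 for A_55_P2830119, so the choice of the brightest probe was a narrow one. A_55_P2830119 read 1.48, 1.43 and 1.78 on knockouts 1 to 3, against 1.96, 2.08 and 2.14 on controls 1 to 3. A_51_P388737 read 1.29, 1.37 and 1.33 on knockouts 1 to 3, against 1.91, 2.07 and 2.17 on controls 1 to 3. On both of these probes all knockout arrays lay below all control arrays, a separation that 20.7% of all genes showed. A_51_P388737 fell in knockout crypts by 0.72 ± 0.15 on the log2 scale, 1.65-fold lower (n = 3 each, adjusted p = 0.0244 over all probes, limma), while A_55_P2830119 at -0.50 ± 0.16 did not pass (0.0870). Over all 19387 probes tested singly, 14.6% were called. A_51_P388737 differed by -0.66 on slide 1 and by -0.84 on slide 2. The 4th probe, A_52_P254298, gave 0.17 ± 0.31 (adjusted p = 0.736), with control 2 highest and control 1 lowest as on the brightest probe, and the mean of the 4 probes gave -0.10 (0.832, limma). The brightest probe carries another RefSeq transcript accession than the other 3, and whether the probes read different transcript forms was not tested.

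**Figure D2:**
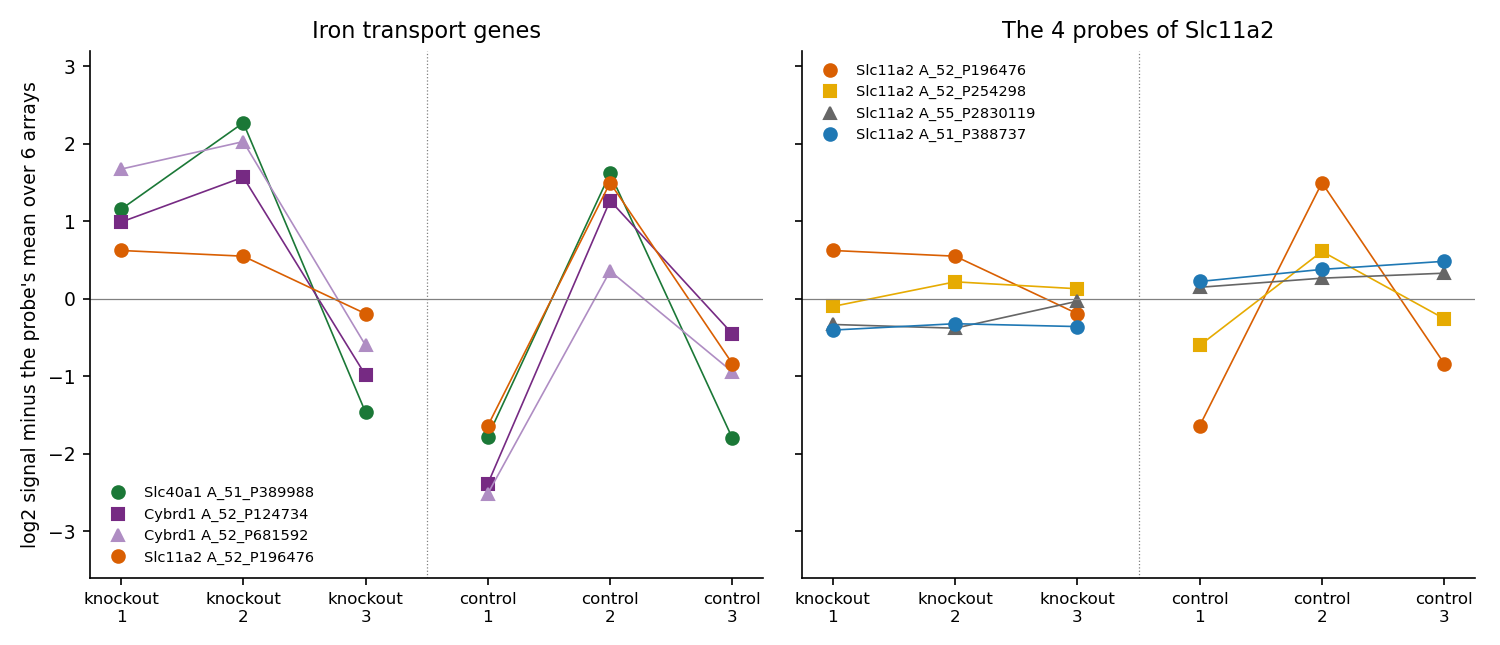
Log2 signal minus the probe's own mean over the 6 arrays, for 4 probes of Slc40a1, Cybrd1 and Slc11a2 (left) and the 4 probes of Slc11a2 (right), knockout arrays left of the dotted line and control arrays right of it; lines only join the values of a probe. In the left panel knockouts 1 and 2 and control 2 are the 3 highest arrays for every probe, and in the right panel A_51_P388737 and A_55_P2830119 are lower on all 3 knockout arrays.

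The same 3 arrays ranked highest for Slc40a1, for both Cybrd1 probes and for the brightest Slc11a2 probe: knockout 1, knockout 2 and control 2. They were also the 3 highest for Fth1, but there only 0.0046 log2 units above the next array. Neither the group nor the slide separates these 3 arrays from the other 3, since slide 1 also holds control 1. The summed signal of 7 markers of duodenum and proximal intestine was 1024, 1821 and 2290 on knockouts 1 to 3, against 1431, 1565 and 1868 on controls 1 to 3. The sum adds probes of unequal brightness and is mostly Apoa4 and Fabp1, which are also on the enterocyte list. Pdx1, a transcription factor of duodenum and pancreas, read 2.04, 2.87 and 1.64 on knockouts 1 to 3, against -0.79, 0.53 and 0.09 on controls 1 to 3. Knockouts 1 and 2 were its highest knockout arrays and control 2 its highest control array, as for Slc40a1. The other measured markers of that list did not share this order. Gata4, Onecut2, Rbp2, Apoa4, Fabp1 and Lct each had control 3 as the highest control array. Pdx1 was 2.24 ± 0.43 higher in log2 in knockout crypts (adjusted p = 0.0202), and Lct, the lactase gene, was 5.10 ± 1.01 lower (0.0220, limma, n = 3 each); of the 6 fits with an array left out, 3 called Pdx1 and 2 called Lct. Of 6 measured ileum markers 4 were lower and 0 higher, and their summed signal was 27.0 to 38.3 on the knockout arrays, against 80.0 to 128.4 on the control arrays. Among the 4, Fabp6 was above background on 0 and Cubn on 2 of 3 knockout arrays, and both on 3 of 3 control arrays. The sizes of these 2 differences are therefore uncertain. With probes above background on all 6 arrays, 3 ileum markers were measured and 2 were lower. The ileum count of 4 was 5 without knockout 3, 3 without knockout 1 or knockout 2, 2 without control 1, control 2 or control 3, and 0 in limma without both arrays of contradicting labels, where 4 had an unadjusted p under 0.05. The part of these marker differences in the results for the iron and zinc genes was not tested.

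Heph, the ferroxidase that works with ferroportin, read 5.67, 6.13 and 6.17 on knockouts 1 to 3, against 5.62, 5.69 and 5.87 on controls 1 to 3. Knockout 1 lay among the control arrays, and the log2 fold change was 0.27 ± 0.19 (SE, n = 3 each, 95% interval -0.19 to 0.72, adjusted p = 0.353, limma). Its other 2 probes gave 0.33 and 0.47 (adjusted p = 0.281 and 0.190 over all probes, limma). Heph did not share the array order of Slc40a1, since knockout 3 was its highest array. Tfrc, the receptor for iron-loaded transferrin, read 3.74, 2.25 and 3.07 on knockouts 1 to 3, against 2.46, 3.09 and 2.57 on controls 1 to 3. The highest and the lowest array were both knockouts, 1 and 2, and the log2 fold change was 0.31 ± 0.39 (SE, n = 3 each, 95% interval -0.62 to 1.24, adjusted p = 0.595, limma). A second Tfrc probe also had knockout 1 highest and gave 0.51 ± 0.52 (adjusted p = 0.516, limma, n = 3 each). Without knockout 1 the brighter Tfrc probe stood at -0.046.

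**Figure D3:**
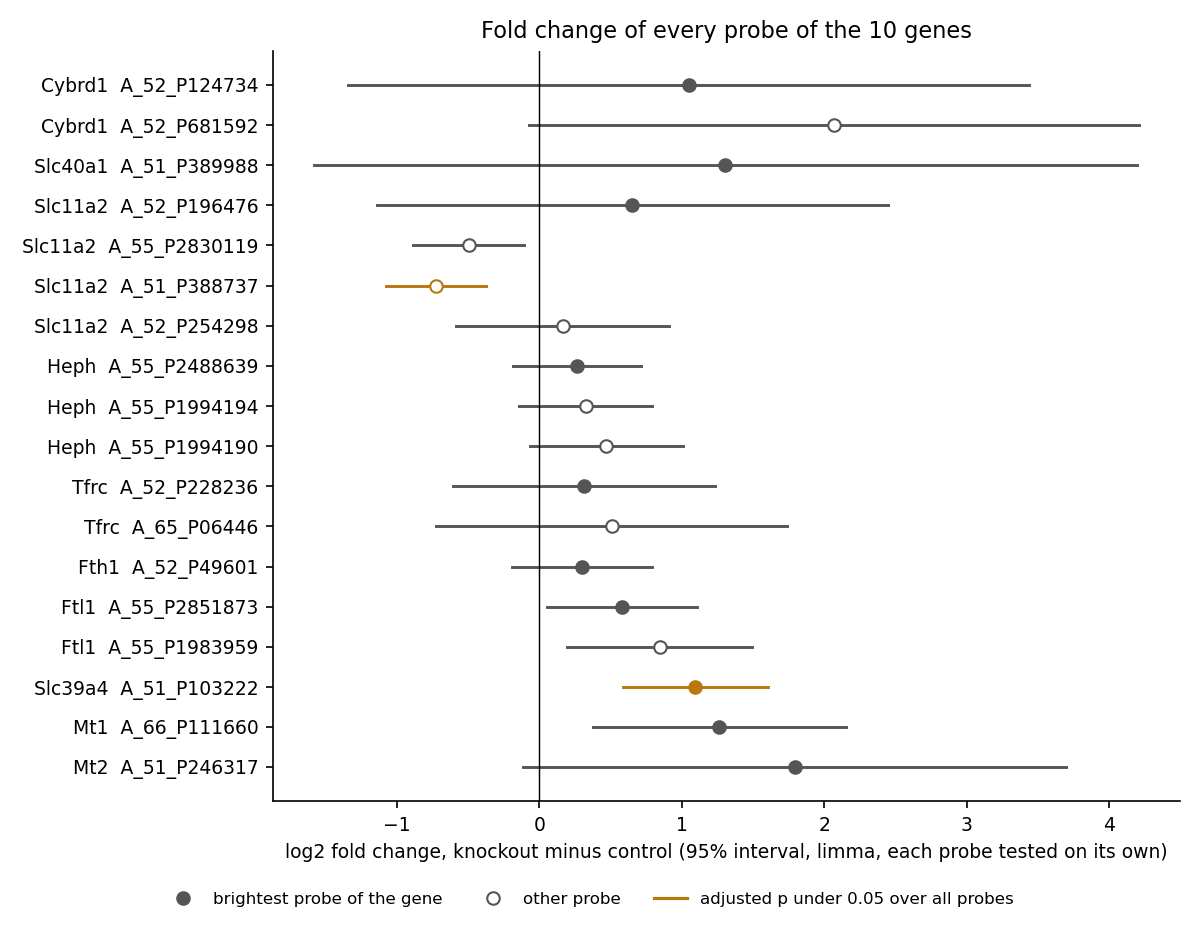
Log2 fold change, knockout minus control, with the 95% interval from limma, for each of the 18 probes tested on its own, 3 arrays a group. Filled points are the brightest probe of a gene, and colour marks the 2 probes past an adjusted p of 0.05: Slc39a4 at 1.1 and A_51_P388737 of Slc11a2 at -0.72.

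The genes of proteins that govern these messages were examined next, by their RNA signals. The amount and activity of the proteins were not measured. Aco1 and Ireb2, whose products bind iron-responsive elements, pointed in opposite directions and neither passed: Aco1 was at -0.61 ± 0.20 (adjusted p = 0.0820) and Ireb2 at 0.64 ± 0.26 (0.136, limma, n = 3 each). Epas1, the hypoxia factor known in mouse intestine to drive Cybrd1, Slc11a2 and Slc40a1, stood at -0.30 ± 0.24 (adjusted p = 0.411), and Hif1a at 0.76 ± 0.23 (0.0730, limma, n = 3 each). Of 20 hypoxia factors and target genes, all measured, 6 were higher and 1 lower in knockout crypts, with a median log2 fold change of 0.76. The 6 were Egln3 (1.79 ± 0.34, adjusted p = 0.0188), the glucose transporter gene Slc2a1 (1.17 ± 0.21, 0.0158), the peptide gene Adm (1.65 ± 0.44, 0.0499), the mitophagy genes Bnip3 (1.35 ± 0.24, 0.0158) and Bnip3l (0.80 ± 0.20, 0.0450), and the carbonic anhydrase gene Car9 (1.0 ± 0.17, 0.0130, limma, n = 3 each). Egln1, a hydroxylase that marks hypoxia factors for breakdown, was lower by 0.63 ± 0.16 on the log2 scale (adjusted p = 0.0458, limma). The count of hypoxia genes called higher depended on the scaling and on single arrays: it was 2 with array median scaling, 8 without knockout 1, 3 without knockout 2, 1 without control 2, 1 without control 3, and 0 in limma without control 1 and without both arrays of contradicting labels, where 10 and 9 genes of the list had an unadjusted p under 0.05. In those fits with an array left out the list's median stayed between 0.61 and 0.92.

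Of 15 other genes of iron uptake, haem import and iron reduction, 10 were measured, and 5 were lower and 0 higher in knockout crypts. Steap1 and Steap2, of the Steap family that includes metal reductases, had log2 fold changes of -3.61 ± 0.75 and -2.80 ± 0.42 (adjusted p = 0.0258 and 0.00967, limma, n = 3 each). Steap1 read 0.18, -3.01 and -2.03 on knockouts 1 to 3, against 2.29, 2.05 and 1.62 on controls 1 to 3, and all knockout arrays lay below all control arrays. The other 3 were Slc39a8, a transporter of zinc, iron and manganese (-1.64 ± 0.31, adjusted p = 0.0191), Hfe, a partner of the transferrin receptor (-0.95 ± 0.21, 0.0291), and Lcn2, which binds bacterial iron carriers (-1.83 ± 0.33, 0.0163, limma, n = 3 each). The median of the 10 was -0.92, against -0.01 over all genes and 0.85 over the 10 iron and zinc genes. The count of 5 was 6 without knockout 1, 3 without knockout 2, knockout 3 or control 3, 1 without control 1 or control 2, and 1 without both arrays of contradicting labels. Steap2 was called in each of the 6 fits that left out an array. Its probe was above background on 2 of 3 knockout and 3 of 3 control arrays, so the size of its difference is uncertain. With probes above background on all 6 arrays, 9 genes of this list were measured and 4 were lower. Slc46a1, which carries folate and haem, was at -0.32 ± 0.37 (adjusted p = 0.572), Steap3 at -0.37 ± 0.17 (0.185) and Trf, the transferrin gene, at -0.45 ± 0.20 (0.162, limma, n = 3 each).

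Of 11 genes of iron export, iron oxidation and haem turnover, 9 were measured and 0 were called by limma, while 3 had an unadjusted p under 0.05. Hmox1, the haem oxygenase that frees iron from haem, read -0.62, 3.36 and -1.48 on knockouts 1 to 3, against -2.22, -2.08 and -2.40 on controls 1 to 3. Knockout 2 stood far above the other 5 arrays, and the log2 fold change of 2.65 ± 1.16 did not pass (SE, n = 3 each, adjusted p = 0.159, limma). Of 17 genes of intracellular and mitochondrial iron, 16 were measured and 1 was called, the mitochondrial iron carrier gene Slc25a28, higher by 0.85 ± 0.17 in log2 (adjusted p = 0.0215, limma), a call that 1 of the 6 fits with an array left out also made. The systemic hormone list had 3 of 7 genes measured and 1 called: Hamp2, a copy of the hepcidin gene in mice, at -2.73 ± 0.56 (adjusted p = 0.0241, limma), above background on 1 of 3 knockout arrays and 3 of 3 control arrays, so that the size of the difference is uncertain; it was called in 2 of the 6 fits that left out an array. Hepcidin itself, Hamp, was not above background on any array.

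Among zinc genes, the list of 11 other Slc39 importers had 10 measured, 0 higher and 1 lower, Slc39a3 at -0.61 ± 0.14 (adjusted p = 0.0331, limma), with a list median of 0.04. Slc39a3 was called in 1 of the 6 fits that left out an array, and Slc39a8, of the same family, is counted above among the iron genes. Of 10 Slc30 exporters, which move zinc out of the cytosol, 8 were measured and 2 were higher: Slc30a5 at 0.89 ± 0.23 (adjusted p = 0.0491) and Slc30a10, chiefly a manganese exporter, at 1.05 ± 0.18 (0.0135, limma, n = 3 each). Their list median was 0.05. With an array left out, the exporter count was 2 without knockout 1, 1 without knockout 2, knockout 3 or control 2, and 0 in limma without control 1 or control 3, where 3 and 4 exporters had an unadjusted p under 0.05; array median scaling gave 1 higher and 2 lower. Slc30a1, the exporter induced by zinc through Mtf1, read 1.17, 1.66 and 1.51 on knockouts 1 to 3, against 1.48, 2.13 and 1.80 on controls 1 to 3. Its groups overlapped, and its log2 fold change of -0.35 ± 0.23 (SE, n = 3 each, adjusted p = 0.303, limma) was opposite in sign to those of Mt1 and Mt2. Mt3, Mt4 and Mtf1 were measured, and limma called 0 of these 3, with 1 at an unadjusted p under 0.05. Mt4, named after its values were seen, read -2.63, 2.36 and -1.32 on knockouts 1 to 3, against -3.23, -3.31 and -4.07 on controls 1 to 3, and knockout 2, the highest array of Mt4, was also that of Hmox1 and Mt2.

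Copper handling and glucocorticoid-responsive genes were listed because metallothioneins bind copper and are induced by glucocorticoids. Of 8 copper genes, all measured, 1 was called: Cox17, which carries copper to cytochrome oxidase, higher by 0.71 ± 0.15 in log2 (adjusted p = 0.0291, limma, n = 3 each) and at 0.46 (0.161) with array median scaling. Of 7 glucocorticoid-responsive genes, 1 was higher and 0 lower, the phosphatase gene Dusp1 (2.25 ± 0.31, adjusted p = 0.00660, limma, n = 3 each), and the list's median was -0.47. Dusp1 was called in each of the 6 fits that left out an array.

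**Figure D4:**
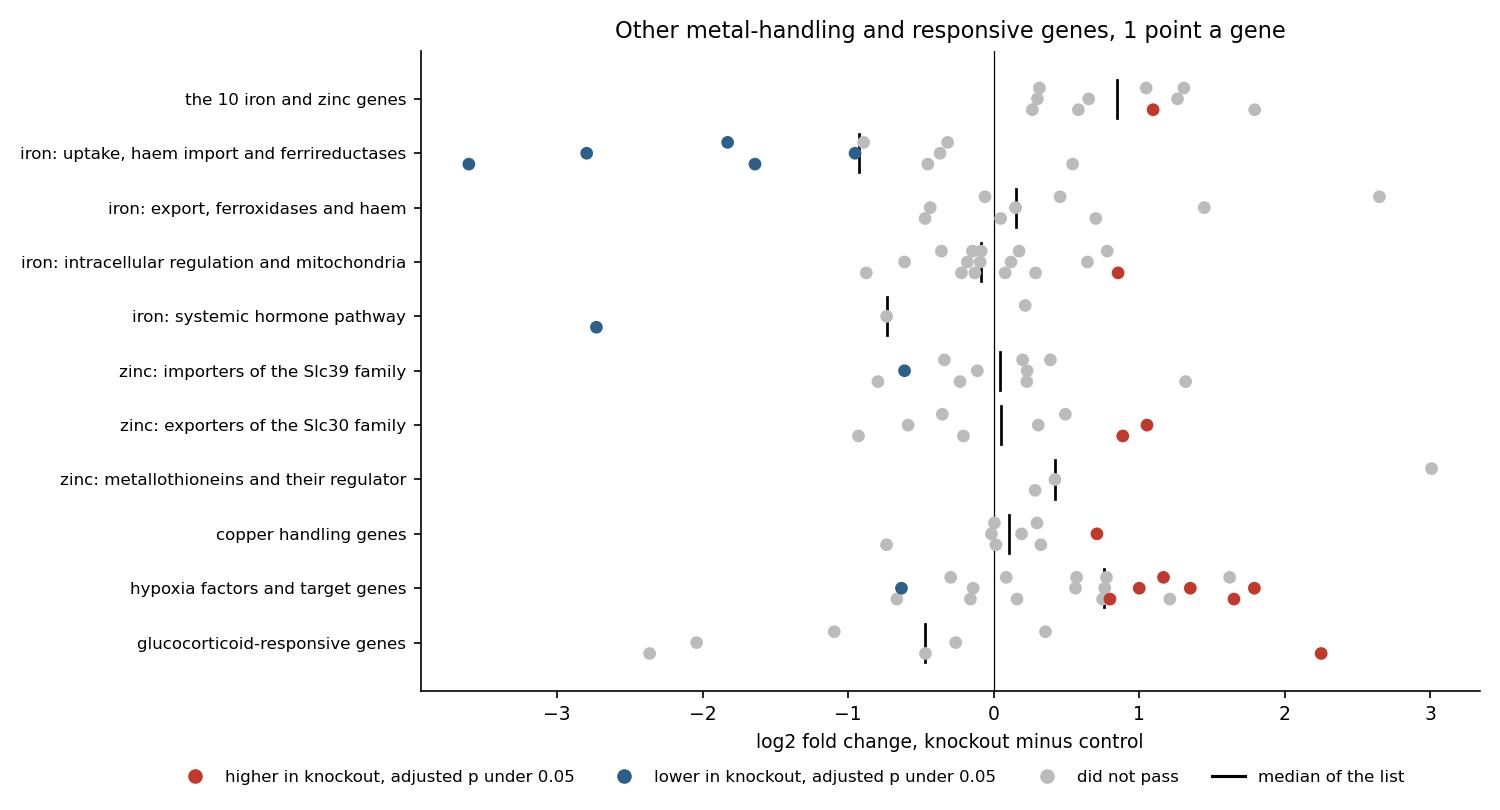
Log2 fold change, knockout minus control, of every measured gene of the 10 iron and zinc genes and of the other metal, hypoxia and glucocorticoid lists, 1 point a gene, with the median of each list as a bar. By their brightest probes the 10 genes all lie right of 0 with a median of 0.85, though Slc11a2 has other probes left of 0. The list of other uptake genes has a median of -0.92 and 5 genes called lower.

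Macrophages and red cell precursors handle much iron and express Slc40a1, Tfrc and ferritin, so their markers were set beside these genes. Of 13 macrophage markers 7 were measured, 5 with a positive fold change, and their median was 0.30. Cd68 and Mrc1 were higher and Lyz2 lower in knockout crypts. Mrc1 was called in 6, Cd68 in 3 and Lyz2 in 2 of the 6 fits with an array left out. Cd68 was not called with array median scaling (adjusted p = 0.102, limma). Mrc1 was above background on 3 of 3 knockout and 1 of 3 control arrays. It thus passed the filter through the knockout arrays, and the size of its difference is uncertain. With probes above background on all 6 arrays, 6 macrophage markers were measured, 1 higher and 1 lower. The summed signal of the 7 measured macrophage markers was 12.9 to 18.8 on the knockout arrays, against 17.1 to 21.3 on the control arrays. This sum adds probes of unequal brightness and is mostly Mertk, Cd14 and Lyz2, with little from Cd68 and Mrc1. Csf1r, C1qb and Cd68 were above background on all 6 arrays, while Adgre1, Cd163, Vsig4 and Spic were not above background on any array. Of 12 erythroid markers 2 were measured, both alpha globin genes, and limma called 0, with 0 at an unadjusted p under 0.05, while Alas2, Slc4a1 and Rhag were not above background on any array. The summed signal of the 10 measured T cell and intraepithelial lymphocyte markers was 206.3, 69.2 and 178.5 on knockouts 1 to 3. On controls 1 to 3 it was 46.3, 162.1 and 119.8, an array order other than that of Slc40a1, Cybrd1 or Mt1. Of the 10 markers, 9 had a positive fold change, against 49.1% of all genes, and their median was 0.75. Only Thy1 was called, higher at 1.92 (adjusted p = 0.0209, limma, n = 3 each), where 7.28% of all genes were called higher. Thy1 was called in 3 of the 6 fits with an array left out. Paneth cells, the crypt cells whose granules are rich in zinc, had 7 of 8 markers measured, of which 5 were lower and 0 higher in knockout crypts, and in all 7 the highest knockout array lay below the lowest control array. Their median log2 fold change was -2.92, and their summed signal was 1075, 970 and 213 on knockouts 1 to 3, against 1930, 1917 and 1774 on controls 1 to 3. That median is the value of Wnt3, 1 of the 5 called. Wnt3 was above background on 0 of 3 knockout and 3 of 3 control arrays, so the size of its difference is uncertain. With probes above background on all 6 arrays, 6 Paneth markers were measured and 4 were lower, with a median of -2.84. The Paneth count of 5 was 1 without knockout 2 or control 3, and 0 in limma without control 1, without control 2 and without both arrays of contradicting labels, where 5 had an unadjusted p under 0.05 in each. The part of the macrophage, lymphocyte and Paneth cell differences in the results for the iron and zinc genes was not tested.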

How the data were processed

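Per the labels, Cy3-labelled material of each of 6 crypt samples was put on 1 Agilent array. Spot intensity was extracted by the authors with Agilent Feature Extraction (11.5.1.1 in the submitters' processing notes, 12.0.3.1 per the file headers), which subtracts the background in the processed intensity. The deposited log2 table of the authors, centred on the median of every probe, was used as an alternative.

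Control spots and spots flagged as outliers were dropped, and the array's 75th percentile was subtracted from the log2 processed signal; no spot was saturated. Accessions, matched to a RefSeq gene table (GRCm38.p6), named 33767 of 56605 probes. Probes well above background on at least 3 arrays were kept (19387 named), and the brightest on average stood for a gene; 4726 genes had several. Since the array's coordinates are on another build, probes and genes are given without coordinates; those of the promoter windows are RefSeq's. limma 3.58.1 (R 4.3.3) was fitted on group alone with eBayes, and p-values were adjusted by Benjamini-Hochberg over 13492 genes, two-sided, and was tested on simulated data. The number of arrays limits the precision. Slide 1 held knockouts 1 and 2 and controls 1 and 2, slide 2 knockout 3 and control 3.

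The members, lists and rule for named genes (all members and their probes, Arid1a, the called genes of each list and 11 fixed regulators and transporters) were chosen with earlier results of these data known. Marker genes were named where they show a list's values. Alternatives varied scaling, background correction, filter, probe choice, variance model, array weights, blocks, grouping, values, threshold and arrays; sex as a block was chosen after seeing the data. The normexp correction (offset 50) used median signals, since mean signals were not analysed here.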

Additional observations from a re-analysis of the deposited data

How the results depend on the processing

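The number of genes called, 2011, was 697 with no filter on dim probes, 7097 with array weights, 689 on slide 1 alone, 1339 with sex as a block, 513 at an adjusted p under 0.01 and 3445 under 0.10. It was 0 (limma; 207 at an unadjusted p under 0.05) with groups by source name and genotype, and 320 without both arrays of contradicting labels. With each array left out in turn it ran from 638 (without control 1) to 4033 (without knockout 1). The number of iron and zinc genes called, 1, was 0 in limma with array median scaling (2 at an unadjusted p under 0.05), no filter (2), slide 1 alone (2), groups by genotype (0), without both contradicting arrays (1) and at 0.01 (3). It was 2 with normexp, at 0.10 and with each probe tested singly, 6 with array weights, and 0 to 3 with each array left out. Array median scaling also moved the share of calls that were higher in knockout crypts to 28.8%, against 48.8%.

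Over all genes tested, deviations of same-numbered arrays from their group means correlated at 0.246, 0.0797 and 0.352, each best with its own number. Not all were above 0.1, so the numbers were not taken to pair the samples. With the replicate block 2733 genes and 1 member were called. Over 238 alternative values of the 10 fold changes, 208 kept direction and call, 9 lost the call (all Slc39a4), 8 gained one and 13 turned direction. Slc11a2 turned to -0.10 with the mean of its probes, -0.0034 without control 1, -0.50 and -0.72 on 2 single probes and -0.27 with groups by genotype. Tfrc turned to -0.36 with array weights and to -0.046 without knockout 1, and Slc40a1 to -0.075 without both contradicting arrays. With groups by genotype, Cybrd1 turned to -0.30, Slc40a1 to -1.41, Fth1 to -0.19, Mt1 to -0.23 and Mt2 to -1.27. Left out singly, arrays moved Slc11a2 as far as 1.56 (without control 2), Tfrc as far as 0.70 (without knockout 2), Cybrd1 to 0.12 (without control 1) and 1.94 (without control 2), and Fth1 to 0.11 (without knockout 2). The cause of these changes was not tested.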
